A study of Homo sapiens with 6 samples.

Results

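The Hedgehog pathway genes examined here were the ligands SHH, IHH and DHH, the receptor PTCH1, the ligand-binding antagonist HHIP, the signal transducer SMO and the transcription factors GLI1, GLI2 and GLI3. These 9 genes, of 19974 protein-coding genes on chromosomes 1 to 22 and X, were taken by name, and every island that overlapped a gene span or the 10 kb on either side of it was read in 4 deposited lists. An island is a stretch of neighbouring windows enriched for a histone mark. The lists came from chromatin immunoprecipitation and sequencing of H3K27me3, which Polycomb repressive complex 2 lays down on silenced genes, and of H3K4me3, found at promoters that are in use or poised. The cells were endothelial cells differentiated from H1, an established human embryonic stem cell line, and labelled GATA2-positive, after a transcription factor needed for blood formation. All groups share this line and its genotype label, and by the labels differ in the antibody and in whether the cells were derived with Vc (vitamin C, by the series title) or without it. The groups are Vc+ H3K27me3, Vc− H3K27me3, Vc+ H3K4me3 and Vc− H3K4me3, with 1 library in each, and the 2 input samples were not used here. The labels give no dose of Vc and no length of treatment.

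With 1 library per mark and condition there is no replicate check. No test between conditions could be made, and each difference is one between 2 island lists. The signs in the names of all 4 files are opposite to the condition in the sample labels, and the design text of the series speaks of GATA2 reporter-positive and reporter-negative cells. Groups follow the labels, and a reading by file name would reverse every direction given here. The read depth is unknown. The Vc+ H3K27me3 list was the longer, with 9639 islands of median width 4.0 kb over 51.7 Mb, against 8990 islands of median width 3.2 kb over 40.6 Mb in the Vc− list. For H3K4me3 the Vc+ list held 21991 islands over 48.2 Mb and the Vc− list 22307 over 43.3 Mb. Marker genes were read within 1 kb of a listed start or, where none is listed, of either gene end, as for 5 of 10 endothelial markers (CDH5, PECAM1, VWF, SOX17 and ESAM). The same holds for SPN and HBA1 of blood, POU5F1 and LIN28A of the stem cell, and the mesenchymal genes COL1A1, COL3A1 and TAGLN. On that reading 10 of the 10 endothelial markers carried H3K4me3 in the Vc+ list, against 71.9% of all protein-coding genes. In the Vc− list 9 did (VWF was the exception), against 71.5%. Of the stem cell genes, POU5F1 and NANOG carried it in neither list, and DPPA4 and LIN28A in both. Of the blood genes, PTPRC, SPN and CD48 carried it in neither list, and CORO1A, LCP2 and HBA1 in both. The nearest island lay 4.74 kb from an end of POU5F1 in the Vc+ list and 5.14 kb in the Vc− list. H3K4me3 lay at 3 of 6 blood, 2 of 4 stem cell, 3 of 5 mesenchymal and 3 of 3 neural genes in the Vc+ list, and at 3, 2, 4 and 2 of these in the Vc− list. H3K27me3 lay at 5 of the 10 endothelial genes in the Vc+ list, against 16.4% of all protein-coding genes, and 3 in the Vc− list, against 15%. Of these endothelial genes only ERG has a listed start, so at the others (CDH5, VWF, SOX17 and ESAM) the call may lie at the end opposite the start. H3K27me3 lay at 3 of 3 neural genes, 1 of 6 blood genes (HBA1), 0 of 4 stem cell genes and 0 of 5 mesenchymal genes in both lists.

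In the Hedgehog pathway a secreted ligand binds PTCH1, which in its free state holds SMO inactive. Freed SMO passes the signal to the GLI factors, of which GLI1 acts as an activator and GLI3 largely as a repressor, and PTCH1, HHIP and GLI1 are themselves common targets of the signal. In zebrafish, Hedgehog signalling acts early in arterial fate and the formation of definitive blood, and in mouse IHH from the visceral endoderm is known for its part in the first blood and vessels. Stretches that carry H3K4me3 and H3K27me3 together are called bivalent and are typical of developmental genes that are silent but poised. In lists from many cells, both marks on the same chromosomes and each mark in different cells cannot be told apart.

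All 3 ligand genes and HHIP carried H3K27me3 across the gene start in both conditions. PTCH1 and GLI2 carried H3K4me3 at a start and no H3K27me3 in either. SMO and GLI3 carried H3K4me3 in both conditions and a low-scoring H3K27me3 island in the Vc+ list alone. GLI1 had H3K4me3 at its lower-coordinate end and H3K27me3 at the other. Within the span and its 10 kb flanks, H3K27me3 was called at 7 of the 9 genes in the Vc+ list, where it was called at 26.5% of all protein-coding genes, and at 5 of the 9 in the Vc− list, against 23.8% of all genes. The 5 were called in both lists, against 21.5% of all genes. H3K4me3 was called at 9 of 9 genes in the Vc+ list (80.3% of all genes) and in the Vc− list (80.2%), and so in both (79.3%). No H3K4me3 call was made in the Vc+ list alone (0 of 9 genes, against 0.946% of all genes) or in the Vc− list alone (0 of 9, against 0.901%). Long genes such as GLI2 and GLI3 offer more room for an island, and these shares are not adjusted for length.

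Gene starts came from a set of RefSeq (GRCh38.p14) promoter sequences that holds 15812 protein-coding genes, with at least 1 start for 7 of the 9 genes. A gene is said here to have no listed start where this set lacks it, which does not mean that RefSeq has none. GLI1 and GLI3 were read at both ends of their spans, as were all other protein-coding genes without a listed start. A start inside the span of such a gene would be missed. Within 1 kb of a start, H3K27me3 was called at 6 genes in the Vc+ list, against 16.4% of all genes, and at 5 in the Vc− list, against 15% of all genes, with 5 in both lists, against 13.8%. These counts include GLI1, called only at the end of its span opposite its H3K4me3. With genes lacking a listed start left uncalled they were 5 in the Vc+ list and 4 in the Vc− list. The shares of all genes keep such genes. Within the same 1 kb, H3K4me3 was called at the same 7 genes in both lists (IHH, DHH, PTCH1, HHIP, SMO, GLI1 and GLI2), against 71.9% of all genes in the Vc+ list and 71.5% in the Vc− list, and 70.7% called in both. The share of the Hedgehog genes was near that background. Calls at a start in the Vc+ list alone (1.18% of all genes) or the Vc− list alone (0.786%) were made at 0 of the 9 for this mark. Both marks met at the same start in IHH, DHH, HHIP and SMO in the Vc+ lists, against 14.6% of all genes, and in IHH, DHH and HHIP in the Vc− lists, against 13.1%.

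The bases before 4 of these starts are printed. IHH, HHIP and SMO share a high CG content, and CG-rich sequence is where both marks are usually found. All 3 had both marks in the Vc+ lists, and SMO had H3K4me3 alone in the Vc− lists. SHH is low in CG and had H3K27me3 alone. Not printed are starts as rich in CG with H3K4me3 alone in both conditions, such as 1 of PTCH1 (25 CG) and 1 of GLI2 (26 CG). Each run holds the 250 bases before the start, from RefSeq (GRCh38.p14), 5′ to 3′ on the strand of the gene, with each CG in capitals.
SHH (chr7:155812464-155812713, minus strand): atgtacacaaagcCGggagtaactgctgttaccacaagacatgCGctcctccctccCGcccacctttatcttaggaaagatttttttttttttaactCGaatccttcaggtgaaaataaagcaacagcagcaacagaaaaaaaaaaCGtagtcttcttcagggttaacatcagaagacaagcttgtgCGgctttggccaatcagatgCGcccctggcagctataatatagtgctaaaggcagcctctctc
IHH (chr2:219060922-219061171, minus strand): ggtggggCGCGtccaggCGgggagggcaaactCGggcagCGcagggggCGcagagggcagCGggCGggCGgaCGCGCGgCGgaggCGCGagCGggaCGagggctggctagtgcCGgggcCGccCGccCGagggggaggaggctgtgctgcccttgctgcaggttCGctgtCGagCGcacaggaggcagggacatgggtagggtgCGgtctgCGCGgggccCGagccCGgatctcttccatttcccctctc
HHIP (chr4:144645906-144646155, plus strand): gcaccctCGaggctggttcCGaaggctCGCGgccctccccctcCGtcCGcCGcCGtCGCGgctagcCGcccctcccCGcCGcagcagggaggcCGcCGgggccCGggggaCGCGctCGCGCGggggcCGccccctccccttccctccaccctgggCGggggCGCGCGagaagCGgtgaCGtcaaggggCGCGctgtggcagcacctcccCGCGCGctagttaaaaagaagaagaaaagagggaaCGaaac
SMO (chr7:129188383-129188632, plus strand): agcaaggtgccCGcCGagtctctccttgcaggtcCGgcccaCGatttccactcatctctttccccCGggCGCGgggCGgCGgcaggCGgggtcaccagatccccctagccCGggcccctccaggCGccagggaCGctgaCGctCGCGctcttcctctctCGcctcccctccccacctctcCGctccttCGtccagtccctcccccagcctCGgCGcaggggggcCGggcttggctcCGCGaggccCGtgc

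SHH, with H3K27me3 over its start and no H3K4me3 within 1 kb of it, held 7 CG in this stretch, as many as or more than 30.4% of the 22132 protein-coding gene starts in the table. This class of SHH depends on the window. Its nearest H3K4me3 island lay 1.86 kb from the start in the Vc+ list and 2.26 kb in the Vc− list. With 2 kb around the start SHH had both marks in the Vc+ lists. IHH held 29 CG (84.4%) and HHIP 34 CG (92.7%), and both genes had both marks at the start in both conditions. SMO held 25 CG (75.1%) and had H3K4me3 in both lists and H3K27me3 in the Vc+ list alone. DHH, also with both marks within 1 kb, held only 11 CG (38.5%). Over all gene starts with both marks in the Vc+ lists the median was 23 CG (quartiles 15 and 30, 2784 starts). It was 21 CG with H3K4me3 alone (12807 starts), 9 CG with H3K27me3 alone (329 starts) and 3 CG with neither mark (6212 starts). In the Vc− lists the medians were 22 CG with both marks (2504 starts) and 12 CG with H3K27me3 alone (quartiles 5 and 19, 357 starts). The 7 CG of SHH lay below the median of starts with H3K27me3 alone in both conditions, but within the quartiles of that class (3 and 16 in the Vc+ lists). Of the genes with both marks in both conditions, IHH and HHIP lay above the median of starts with both marks. DHH lay below the lower quartile of that class, 15 CG in both conditions.

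**Figure D1:**
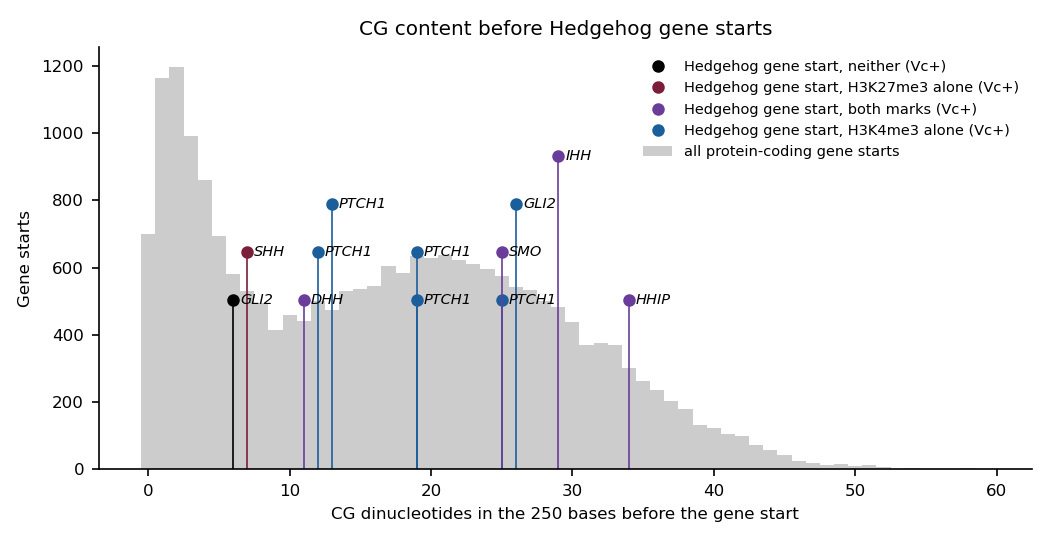
Number of CG dinucleotides in the 250 bases before the gene start (x axis, count) for 22132 protein-coding gene starts (grey bars, y axis in starts), with pins at the 12 listed starts of 7 Hedgehog genes, coloured by the marks called within 1 kb in the Vc+ lists. The height of a pin only separates the names. SHH at 7 CG and the unmarked start of GLI2 at 6 CG stand on the left, IHH at 29 CG and HHIP at 34 CG on the right.

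SHH (NCBI gene 6469, GRCh38 chromosome 7, 155799980 to 155812463, minus strand) encodes Sonic hedgehog, the ligand that patterns the neural tube and limb. H3K27me3 covered 15.6 kb in the Vc+ list and 14.8 kb in the Vc− list, in 2 islands each. The island over the start ran from 155808001 to 155814800 in the Vc+ list (6.8 kb) and from 155805401 to 155815000 in the Vc− list (9.6 kb). A second island lay over the far end of the gene, at 155798401 to 155807200 in the Vc+ list and 155799401 to 155804600 in the Vc− list. The gap between the islands sat at different places in the gene. In each list it was 800 bp, the smallest gap between islands that the list holds, so little can be read from its place. A length of 13.8 kb was covered in both lists, 88.5% of the Vc+ length and 93.2% of the Vc− length. The deposited score of an island is the authors' value, read here as a false discovery rate on the −log10 scale, and serves to rank islands inside 1 list. It was 178 for the Vc+ island at the start, within the top 3.37% of its list, and 196 for the Vc− island, within the top 3.2% of its list. H3K4me3 lay inside SHH, in islands of 3.6 and 2.2 kb in the Vc+ list and of 3.4, 1.2 and 0.6 kb in the Vc− list. The nearest of these ended 1.86 kb from the start in the Vc+ list and 2.26 kb in the Vc− list. All 5.8 kb of H3K4me3 in the Vc+ lists lay under H3K27me3, and 84.6% of the 5.2 kb in the Vc− lists.

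IHH (gene 3549, chromosome 2, 219054424 to 219060921, minus strand) encodes Indian hedgehog, the ligand of cartilage growth and of the visceral endoderm. It had the highest-scoring H3K27me3 islands of the 9 genes in both lists. The island ran from 219050201 to 219066000 in the Vc+ list (15.8 kb, score 222, within the top 2.72% of its list) and from 219056001 to 219066000 in the Vc− list (10.0 kb, score 244, within the top 2.51%). Both ended at the same base upstream of the gene, and the Vc+ island ran further, through the whole gene and 4.22 kb past its far end. A further Vc+ island of 3.6 kb lay 5.02 kb beyond that end with a score of only 4.08. It stood 800 bp from the first island, the smallest gap in that list. In all, H3K27me3 covered 19.4 kb in the Vc+ list, of which 9.4 kb were not covered in the Vc− list, against 10.0 kb in the Vc− list, all of it shared. This was the widest difference among the 9 genes. A narrow H3K4me3 island lay on the start in both conditions, of 1.8 kb in the Vc+ list (score 23.5) and 1.2 kb in the Vc− list (score 10.6). Both were low in their lists, with 73.5% of the Vc+ islands and 87.2% of the Vc− islands scoring as high or higher. The H3K27me3 islands also reached the non-coding genes LOC124906120 and MIR3131 in both lists, and LOC107985987 in the Vc+ list.

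DHH (gene 50846, chromosome 12, 49086656 to 49094801, minus strand) encodes Desert hedgehog, the ligand of testis and nerve sheath that endothelial cells of the mouse are also known to make. In the Vc+ list 1 island of 11.6 kb (49086401 to 49098000, score 74.7) covered the whole gene. In the Vc− list the gene lay under 2 islands, of 7.4 kb (49084601 to 49092000, score 46) and 4.2 kb (49092801 to 49097000, score 27.7), the second of which covered the start. These 2 islands were 800 bp apart, the smallest gap in that list. Another Vc+ island of 4.8 kb lay 4.86 kb outside the gene, with a score of 5.5. H3K27me3 thus covered 16.4 kb in the Vc+ list and 11.6 kb in the Vc− list, with 9.8 kb shared. H3K4me3 at DHH was broken into short islands, 4 in the Vc+ list over 5.8 kb and 3 in the Vc− list over 2.8 kb. The island at the start was 1.2 kb wide in the Vc+ list (score 18.6) and covered the start, and 0.6 kb wide in the Vc− list (score 11.3), where it ended at the base before it. Within the Vc+ islands of DHH, 4.6 kb carried both marks, against 2.0 kb in the Vc− islands. The antisense gene DHH-AS1 (chromosome 12, 49092080 to 49095744) shares the start region, and islands do not tell the strands apart. A Vc+ H3K4me3 island, of 1.4 kb and score 6.49, lay 8.8 kb outside DHH within the neighbouring gene LMBR1L.

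HHIP (gene 64399, chromosome 4, 144646156 to 144745271, plus strand) encodes the Hedgehog-interacting protein, which binds the ligands and dampens the signal. Its H3K27me3 stood at the start alone and left the rest of the 99.1 kb gene without an island. The island was 5.0 kb wide in the Vc+ list (144644801 to 144649800, score 54) and 6.6 kb in the Vc− list (144642401 to 144649000, score 60). Among the 9 genes HHIP alone had less H3K27me3 in the Vc+ list, by 1.6 kb. Of its covered length, 4.2 kb were shared, 84% of the Vc+ length and 63.6% of the Vc− length. H3K4me3 lay within this stretch at the start, over 2.2 kb in the Vc+ list (score 71.5) and 1.4 kb in the Vc− list (score 74.8), beginning at the same base, 144645601. All of it was under H3K27me3 in both conditions. The antisense gene HHIP-AS1 (144642916 to 144646019) begins beside HHIP and was overlapped by the islands of both marks.

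**Figure D2:**
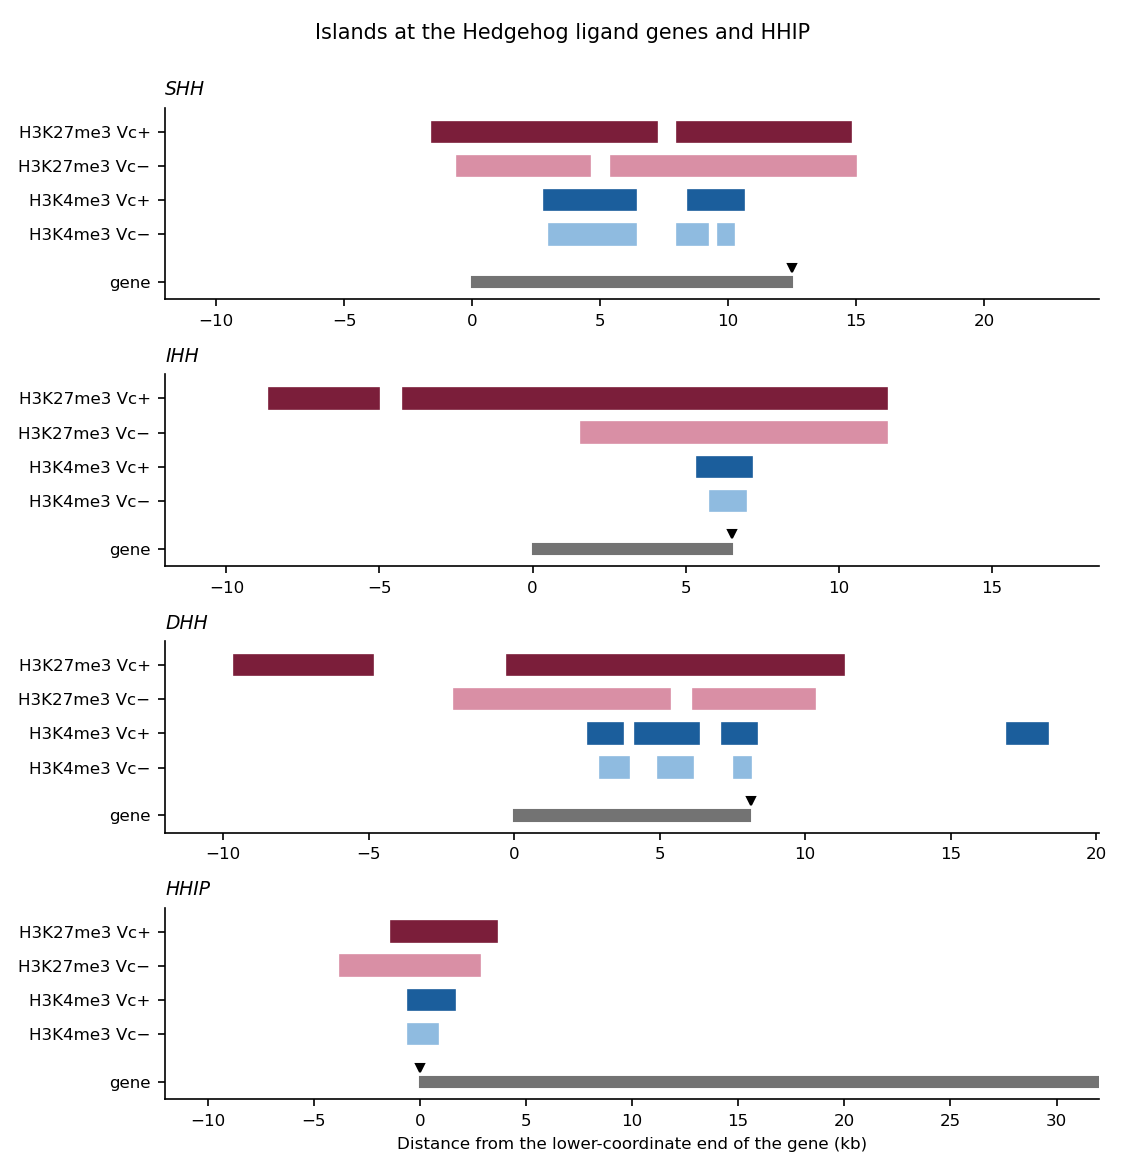
Islands of H3K27me3 (red) and H3K4me3 (blue) at SHH, IHH, DHH and HHIP, drawn to scale against the distance from the lower-coordinate end of the gene (x axis, kb), with the Vc+ library above the Vc− library for each mark. Grey bars are genes and triangles listed starts, and HHIP runs on past the right edge. H3K27me3 covers the start of all 4 genes in both libraries, and the IHH island is 15.8 kb in the Vc+ library and 10.0 kb in the Vc− library.

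PTCH1 (gene 5727, chromosome 9, 95442980 to 95516971, minus strand) encodes Patched, the ligand receptor. The nearest H3K27me3 island lay 91.4 kb from the gene in the Vc+ list and 91.8 kb in the Vc− list. H3K4me3 was broad: an island of 8.8 kb with the same ends in both lists (95504401 to 95513200) covered 4 of the 5 listed starts and had the highest score given, 1000. That score was shared by 569 islands of the Vc+ list and 819 of the Vc− list. Only 0.409% of Vc+ islands and 0.3% of Vc− islands of the mark were as wide. The most upstream start, at 95516971, lay under an island of 2.6 kb in the Vc+ list (score 126) and 2.4 kb in the Vc− list (score 150). A short island deep in the gene, beginning at 95462401, was called in both lists with scores of 4.04 in the Vc+ list and 4.55 in the Vc− list. H3K4me3 at PTCH1 covered 12.4 kb in the Vc+ list and 11.8 kb in the Vc− list, and all of the Vc− length was shared.

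The start of PTCH1 at 95509266 is shown because the motif of the GLI factors stands before it. The motif searched was GACCACCCA, on both strands, where the other strand reads TGGGTGGTC. It was found before 1 of the 12 listed starts of the Hedgehog genes and before 42 of all 22132 starts (0.19%). The 250 bases before that start follow, 5′ to 3′ on the strand of the gene, with the match in capitals.
PTCH1 (chr9:95509267-95509516, minus strand): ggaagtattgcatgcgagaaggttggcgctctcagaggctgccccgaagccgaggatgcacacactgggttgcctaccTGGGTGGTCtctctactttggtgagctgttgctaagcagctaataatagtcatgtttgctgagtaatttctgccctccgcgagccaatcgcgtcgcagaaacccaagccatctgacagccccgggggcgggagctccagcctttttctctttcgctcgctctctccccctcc

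The match begins 172 bases before the start and lies on the strand opposite to the gene. The stretch is inside the 8.8 kb H3K4me3 island of both lists. A match of letters is a description and does not show that a GLI factor binds there.

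SMO (gene 6608, chromosome 7, 129188633 to 129213545, plus strand) encodes Smoothened, the membrane protein that PTCH1 holds in check. H3K4me3 covered its start in both lists, over 2.6 kb in the Vc+ list (129187801 to 129190400, score 148) and 1.8 kb in the Vc− list (129188201 to 129190000, score 205). An H3K27me3 island of 5.0 kb (129187201 to 129192200) enclosed that stretch in the Vc+ list. Its score was 2.79, close to the lowest score in the list, 2.0, and 92.6% of the islands of that list scored as high or higher. The nearest H3K27me3 island of the Vc− list was 42.4 kb from the gene. SMO was the only one of the 9 genes whose H3K27me3 call at a start differed between the lists, and such a call in the Vc+ list alone was made at 2.64% of all protein-coding genes, against 1.25% in the Vc− list alone. The call was lost with a minimum score of 5.

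GLI1 (gene 2735, chromosome 12, 57459785 to 57472268) encodes the activator that is often used as a readout of the signal. H3K4me3 lay at its lower-coordinate end, in islands of 1.4 kb (57459001 to 57460400) in both lists and of 2.6 kb in the Vc+ list and 2.2 kb in the Vc− list just beyond. H3K27me3 lay at the other end, at 57471801 to 57477200 in the Vc+ list (5.4 kb, score 58.1) and 57472201 to 57476800 in the Vc− list (4.6 kb, score 48.5). Most of it was outside GLI1, with 0.47 kb inside the gene in the Vc+ list and 0.07 kb in the Vc− list, and the rest over the neighbouring gene ARHGAP9 (57472269 to 57488824). A further H3K4me3 island, of 1.6 kb in the Vc+ list and 1.4 kb in the Vc− list, lay under the H3K27me3 in ARHGAP9, 2.93 kb past the end of GLI1. The H3K27me3 call at GLI1 is thus one at a shared gene boundary, and no H3K27me3 island touched the end of GLI1 that carried H3K4me3. LOC124902947 overlaps that H3K4me3-marked end.

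GLI2 (gene 2736, chromosome 2, 120735868 to 120992653, plus strand) encodes the main activator downstream of SMO. The nearest H3K27me3 island lay 145 kb from the gene in the Vc+ list and 146 kb in the Vc− list. H3K4me3 covered its first listed start, over 2.8 kb in the Vc+ list (120735201 to 120738000, score 131) and 3.2 kb in the Vc− list (120734801 to 120738000, score 125). The islands at the start also overlapped the non-coding gene LOC124907881, and in the Vc− list LOC124906073. A second island followed inside the gene, of 1.2 kb in the Vc+ list and 1.8 kb in the Vc− list. The start at 120792281 had no island of either mark within 1 kb in any list, and the 250 bases before it held 6 CG, against 26 before the marked start. The Vc− list alone had a further island, of 0.6 kb and score 7.0, far inside the gene.

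GLI3 (gene 2737, chromosome 7, 41960949 to 42264268) encodes the factor that is largely processed to a repressor when the signal is off. Neither end of its 303.3 kb span had an island of either mark within 1 kb. No start is listed for GLI3, so whether an island inside the gene covers a transcript start could not be read here. H3K4me3 lay inside the gene, in an island of 3.2 kb in both lists, at 42235801 to 42239000 in the Vc+ list (score 170) and 42235601 to 42238800 in the Vc− list (score 157). These islands ended 25.3 kb from the higher-coordinate end of the gene in the Vc+ list and 25.5 kb in the Vc− list. A shorter island began at 42227601 in both lists. An H3K27me3 island of 4.4 kb lay deep in the gene in the Vc+ list alone (42086201 to 42090600), 137 kb from the nearest H3K4me3 island of GLI3 in that condition. Its score was 7.51, and 60.2% of the islands of its list scored as high or higher. The nearest H3K27me3 island of the Vc− list lay 259 kb from the gene. The call at GLI3 held with a minimum score of 5 and was lost with one of 10. Calls within the span or its flanks in the Vc+ list alone were made at 2 of the 9 genes, SMO and GLI3, against 4.97% of all protein-coding genes, and in the Vc− list alone at 0 of the 9, against 2.3%.

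**Figure D3:**
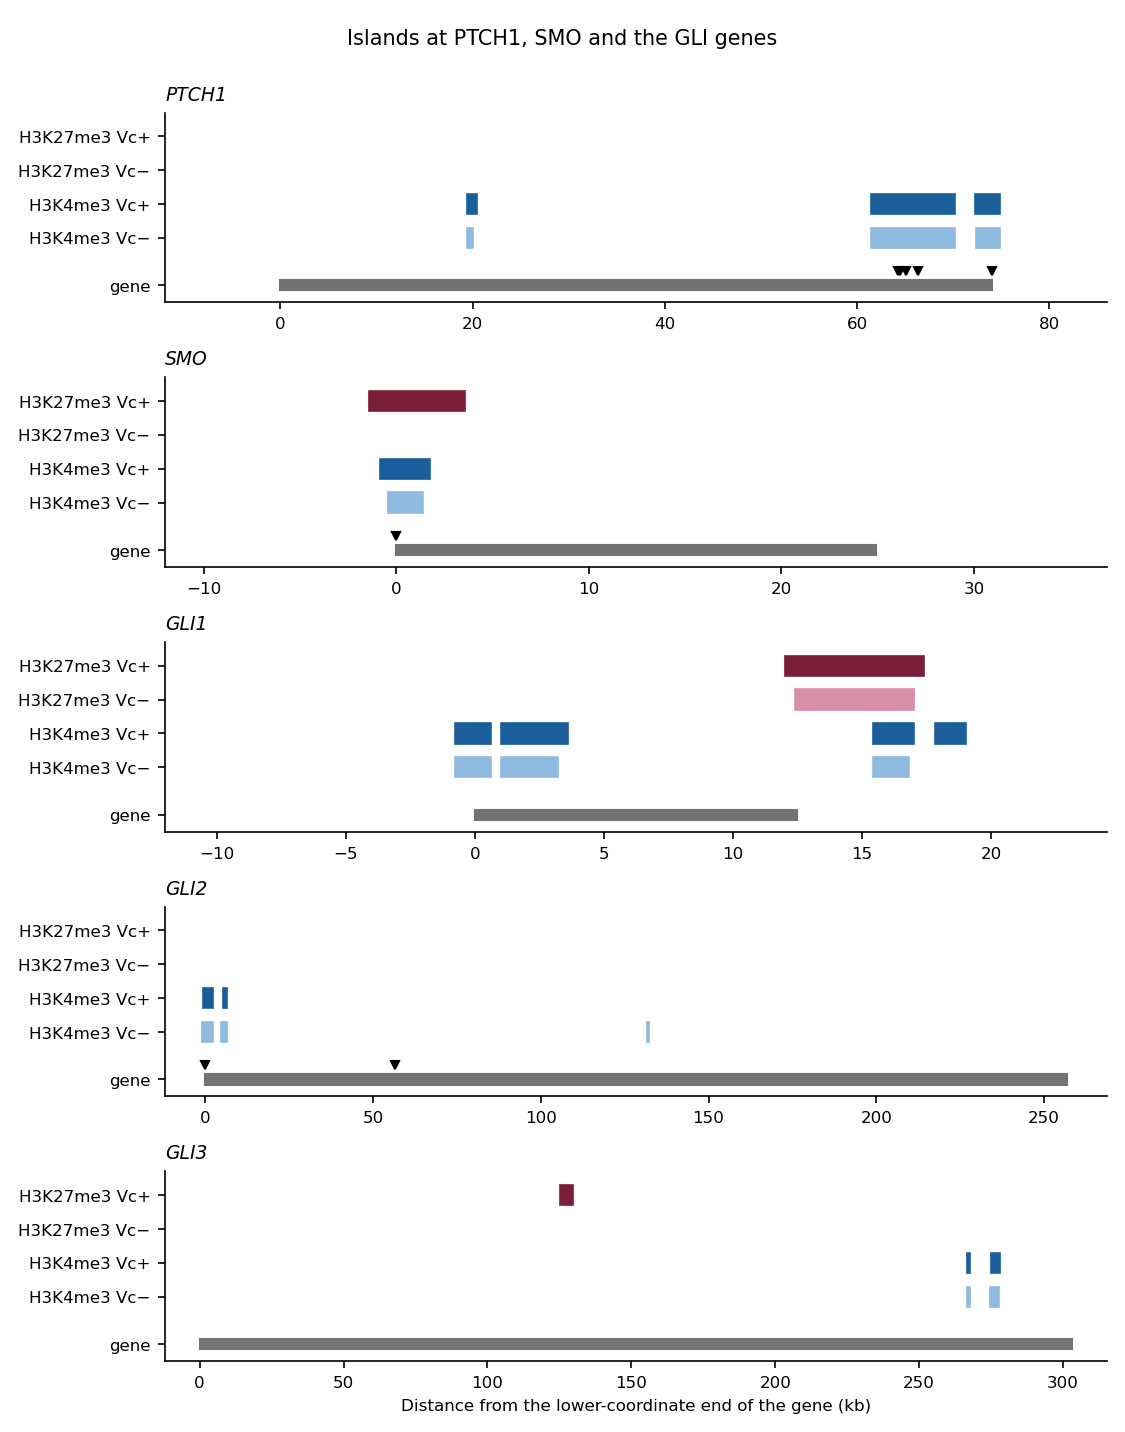
Islands of H3K27me3 (red) and H3K4me3 (blue) at PTCH1, SMO, GLI1, GLI2 and GLI3, drawn as distance from the lower-coordinate end of the gene (x axis, kb, a different scale in each panel), with the Vc+ library above the Vc− library for each mark. Grey bars are genes and triangles listed starts. PTCH1 and GLI2 show no H3K27me3, SMO and GLI3 show it in the Vc+ library alone, and at GLI1 it begins at the end of the gene.

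Summed over the 9 genes, H3K27me3 covered 71.2 kb in the Vc+ list and 47.6 kb in the Vc− list, a ratio of 1.5, while the whole Vc+ list covered 1.27 times the length of the whole Vc− list. The length covered in both lists was 42.4 kb, which is 59.6% of the Vc+ length and 89.1% of the Vc− length. For the whole lists these shares were 57% and 72.5%. IHH, SMO, DHH and GLI3 made up the difference, with 9.4, 5.0, 4.8 and 4.4 kb more in the Vc+ list. SHH and GLI1 each had 0.8 kb more. Much of this excess lay in Vc+ islands that scored under 10, which held all 5.0 kb at SMO, all 4.4 kb at GLI3, 4.8 kb at DHH and 3.6 kb at IHH, while no Vc− H3K27me3 island at the 9 genes scored under 10. With a minimum score of 10 the lengths were 53.4 kb in the Vc+ list and 47.6 kb in the Vc− list, a difference of 5.8 kb in place of 23.6 kb and a ratio of 1.12, below the 1.24 of the whole lists at that score. H3K4me3 covered 45.6 kb in the Vc+ list and 39.2 kb in the Vc− list, a ratio of 1.16, beside 1.11 for the whole lists. Of these lengths, 36.6 kb were shared, which is 80.3% of the Vc+ length and 93.4% of the Vc− length. For H3K4me3, 7 of the 9 genes had the longer covered length in the Vc+ list, and GLI2 and GLI3 in the Vc− list. The whole lists differed in the same direction. Read depth is unknown, and its part in these lengths was not tested.

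**Figure D4:**
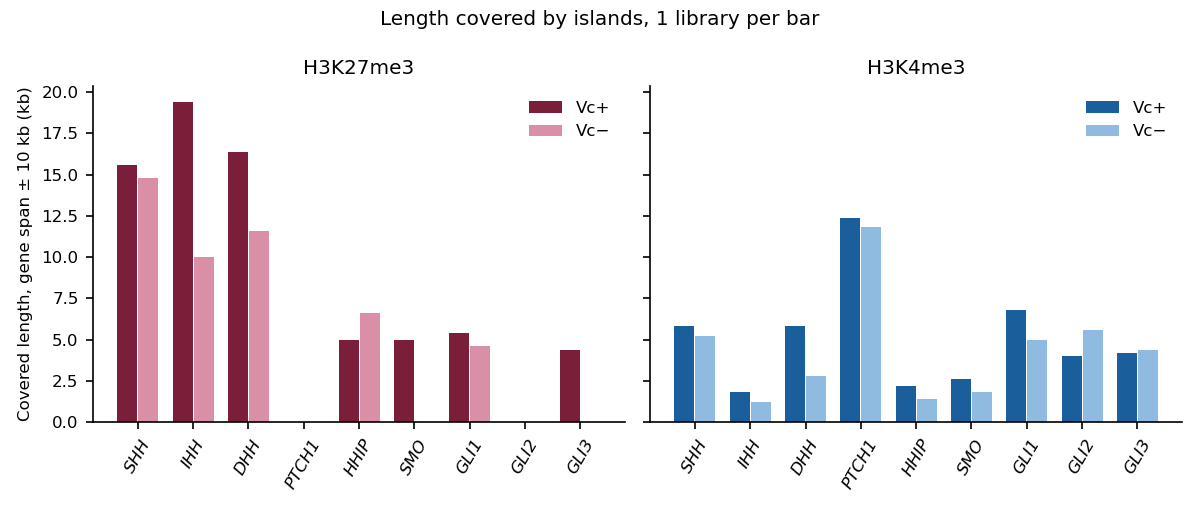
Length covered by islands within the gene span and 10 kb on either side (y axis, kb, bars from 0) for each gene, with H3K27me3 in the left panel and H3K4me3 in the right, and 1 library per bar with no error. The ligand genes hold the longest H3K27me3, from 15.6 to 19.4 kb in Vc+ and 10.0 to 14.8 kb in Vc−, and PTCH1 the longest H3K4me3, at 12.4 kb in Vc+ and 11.8 kb in Vc−.

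A list of 16 other genes of the pathway was read in the same way. GPC3 has no listed start and was read at both gene ends. H3K4me3 was called at 16 of 16 in the Vc+ list (71.9% of all genes) and in the Vc− list (71.5%). H3K27me3 was called at the start of 4 of 16 in the Vc+ list (16.4% of all genes) and 2 of 16 in the Vc− list (15%). SCUBE2, whose product helps release the ligand, had an island of 6.0 kb in the Vc+ list (score 52.6) and 2.8 kb in the Vc− list (score 64.6). LRP2, an endocytic receptor that binds SHH, had one of 10.8 kb in the Vc+ list (score 67.8) and 5.8 kb in the Vc− list (score 22.7). GAS1, a ligand co-receptor, had an island of 3.8 kb over its start in the Vc+ list (score 10.5), and the nearest island of the Vc− list was 3.11 kb from the start. HHAT, the acyltransferase that modifies the ligands, had an island of 2.8 kb that lay 0.635 kb from a start in the Vc+ list (score 6.96), while the nearest Vc− island was 1.64 kb away. Both GAS1 and HHAT had an H3K27me3 island within the span or its 10 kb flanks in both conditions. For HHAT the 1 kb limit decided the call at the start. With 2 kb around the start HHAT was called in both lists, which gave 3 of 16 in the Vc− list. GAS1 was still called in the Vc+ list alone. With a minimum score of 10 the call at HHAT was lost, which left 3 of 16 in the Vc+ list. The other 12 genes had H3K4me3 without H3K27me3 at the start. Among them were the co-receptors BOC and CDON, the ligand releaser DISP1, and SUFU, the inhibitor that binds GLI factors. The H3K4me3 island of SUFU scored 1000 in both lists, the top score that many islands share.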

How the data were processed

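Of 6 samples, the 4 with an antibody each had 1 deposited island list, and the 2 inputs were not used here. The submitters' processing notes name SICER, Bowtie2 and deepTools with builds hg38 and GRCh38, and their roles and settings are not given in the sources used here. The deposited score was read from its values as −log10 of a false discovery rate, made by the authors. It depends on depth and width and was used only within a list. Island widths are multiples of 200 bp. The smallest gap between islands was 800 bp in the H3K27me3 lists and 400 bp in the H3K4me3 lists, and a break of that size is the finest the lists show. Deposited starts count from 0, and coordinates here count from 1.

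Genes, starts and sequences came from RefSeq (GRCh38.p14), the starts and sequences through a promoter set that does not hold every gene. A gene was called where an island overlapped its window by at least 1 bp. All 9 genes are named. A further pathway gene of the planned list is not reported here. Of the other pathway genes, those with H3K27me3 at a start, a differing call or no H3K4me3 are named, and a few more were chosen after their values were seen. Members and lists were chosen with earlier results of these data known. No test was made. Code ran in Python 3.11.15 and was checked against bedtools 2.31.1 and on simulated data. Depth is unknown, so no interval is given.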

Additional observations from a re-analysis of the deposited data

How the results depend on the processing

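Results were recomputed with minimum scores of 5 and 10, equal numbers of islands per mark, an overlap of 200 bp, half-width and other windows, islands within 2 kb joined and, chosen after seeing the data, genes without a listed start left uncalled. Equal numbers of islands and the overlap of 200 bp left all values of the pathway genes unchanged. Of 136 values, 134 stayed within 1.5 times the value given, a limit that a count falling from 6 to 5 genes also passes. These are values of single lists, and differences between lists moved more: the H3K27me3 length of the Vc+ list minus that of the Vc− list was 23.6 kb, 15.0 kb with a minimum score of 5, 5.8 kb with 10, and 11.5 to 23.6 kb under the other settings. The H3K27me3 length in the gene spans alone was 38.4 kb in the Vc+ list and 26.9 kb in the Vc− list, because the flanks are then not counted. The number of genes with both marks at a start ran from 3 to 5 in the Vc+ lists and stayed at 3 in the Vc− lists. The H3K27me3 call at SMO was lost with a minimum score of 5 and that at GLI3 with 10. With 2 kb around the start, SHH gained an H3K4me3 call in the Vc+ list alone. Where genes without a listed start are left uncalled, GLI1 drops out, and so does GPC3 among the other pathway genes (15 of 16 with H3K4me3 in both lists). No paired analysis was possible because each mark and condition has 1 library.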
